A study of Mus musculus with 8 samples.

Results

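Oxidative phosphorylation genes were followed in the cerebellum of 8 C57BL/6JN mice, a black inbred laboratory strain, to ask how transcript levels of the subunits of the 5 respiratory complexes compare between old and young animals. The members are the genes of the count tables whose symbols mark a nuclear-encoded subunit: Nduf a, b, c, s or v genes, the 4 Sdh genes, the Uqcr genes with Cyc1, the Cox4 to Cox8 genes and the Atp5 genes. A member also needed a mean of at least 1 CPM (read counts scaled to a library total of 1000000) over the 8 libraries, and assembly factors were left out. Of 17700 genes listed, 83 were members: 37 of complex I, 4 of complex II, 9 of complex III, 16 of complex IV and 17 of complex V. Another 3 genes matched by name and were left out at means of 0.33 CPM (Cox7b2), 0.368 CPM (Cox8b) and 0.542 CPM (Cox4i2). The members nearest above the limit were Ndufa4l2 at 1.46 CPM, Cox6a2 at 1.71 CPM and Cox7a1 at 2.18 CPM, all isoform or paralog genes. Ndufa4, named after complex I but a subunit of complex IV, was counted with complex IV, as was its paralog Ndufa4l2. Ndufa4l2 and the supercomplex factor Cox7a2l match by name and are not canonical subunits. Subunits encoded by mitochondrial DNA were not analysed here.

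The old group held 4 mice: old 1, a male of 93 weeks, old 2, a female of 83 weeks, old 3, a male of 83 weeks, and old 4, a female of 102 weeks. The young group held young 1 and young 2, males of 19 weeks, young 3, a female of 19 weeks, and young 4, a female of 22 weeks. No transgene, mutation or treatment is named for these mice, and each library was made from total RNA of one animal's cerebellum after depletion of ribosomal RNA. Library totals ran from 6079485 to 7236720 counts, so that 3 counts of a gene, the limit that a count of 0 allows, correspond to 0.421 to 0.511 CPM by counting error alone. The tissue label was checked against marker genes: the 14 granule neuron markers summed to 5360 to 7430 CPM in old and 5870 to 9090 CPM in young libraries, and the 15 Purkinje cell markers to 5890 to 7980 CPM and 6770 to 8550 CPM. Libraries differed within each age in their choroid plexus markers, 11 genes that summed to 52.4 to 1070 CPM in old and 39.8 to 481 CPM in young libraries. The 12 microglia markers summed to 235 to 475 CPM in old and to 145 to 188 CPM in young libraries, without overlap. The 7 liver markers stayed at or below 84.2 CPM and were uneven. The 5 of them tested summed to 7.38, 72.4, 21.2 and 2.68 CPM in old 1 to old 4. In young 1 to young 4 they summed to 4.50, 0.941, 0.682 and 19.1 CPM. Old 2, old 3 and young 4, the highest in these markers, are left out together in a later alternative. The source of these reads was not tested. The design text of the series names liver and other ages, so tissue, age and sex follow the sample labels.

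Oxidative phosphorylation is the process by which the inner mitochondrial membrane turns the energy of NADH and succinate into ATP. Complex I (NADH dehydrogenase) and complex II (succinate dehydrogenase, also an enzyme of the tricarboxylic acid cycle) pass electrons to coenzyme Q, complex III hands them to cytochrome c, and complex IV (cytochrome c oxidase) hands them to oxygen. Complexes I, III and IV pump protons, and complex V (ATP synthase) lets them flow back through its c-ring and turns that rotation into ATP in its F1 head. Neurons draw most of their ATP from this chain, and firing Purkinje cells and the dense granule cell layer make the cerebellum one of its heavy users.

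Transcript levels within a complex were unequal. Levels are given here as mean CPM per kilobase of exon, so that long and short genes can be set side by side, and 82 members had an exon length in the GENCODE M21 annotation of GRCm38 (Atp5md had none). Complex V held the highest of them: Atp5b, the catalytic beta subunit of the F1 head, stood at 433 CPM per kilobase. Atp5a1, the alpha subunit that alternates with it around the head, stood at 228.3 CPM per kilobase. The lowest of complex V was Atp5g2, 1 of 3 genes for the c-ring subunit, at 5.411 CPM per kilobase, 80-fold below Atp5b. Its c-ring partners Atp5g3 and Atp5g1 stood at 104.6 and 11.39 CPM per kilobase. Exon length here joins the annotated transcripts of a gene, so a long transcript model lowers this level. Atp5g3 has 724 bases of exon and Atp5g1 has 4912, while their mean levels before division by length were closer, 75.75 and 55.93 CPM.

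Complex IV had the widest range, 120-fold, from Cox4i1, a subunit known for its part in regulation of the enzyme by ATP, at 187.1 CPM per kilobase to Ndufa4l2 at 1.559 CPM per kilobase. Complex I ran from Ndufb10, an accessory subunit of its membrane arm, at 115.5 to Ndufb1-ps at 4.244 CPM per kilobase, a 27.2-fold range. Ndufb1-ps is annotated as a noncoding transcript at a shared promoter, the only member so annotated beside 81 protein-coding ones. Levels were closer together in complex II, from Sdha, the flavoprotein that oxidises succinate, at 79.76 to Sdhc, a membrane anchor, at 18.99 CPM per kilobase. In complex III they ran from Cyc1, cytochrome c1, at 96.38 to the small subunit Uqcr11 at 18.9 CPM per kilobase. The complex medians were 23.48, 41.565, 43.45, 29.26 and 46.055 CPM per kilobase for complexes I to V. The medians lay closer together than the members of any one complex.

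**Figure D1:**
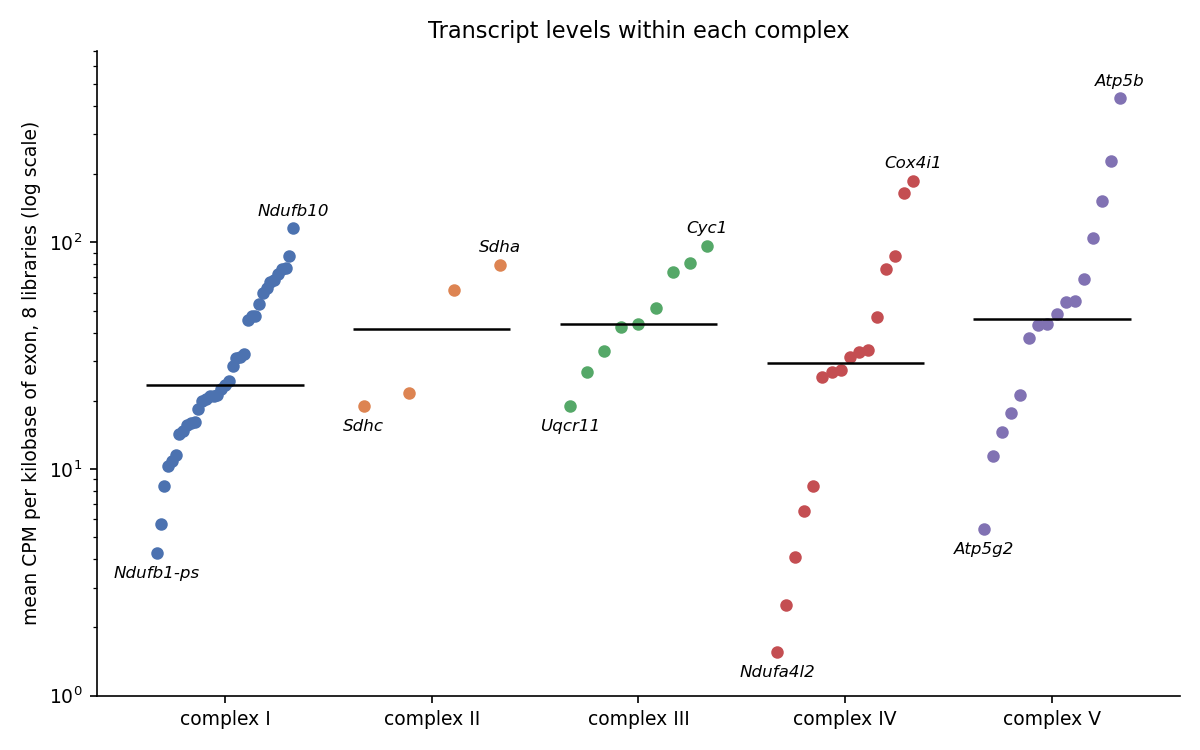
Mean CPM per kilobase of exon over the 8 libraries (y, log scale) for each member of complexes I to V (x), in rising order within a complex. Black lines are complex medians, from 23.48 in complex I to 46.055 in complex V, and the named genes are the highest and lowest of each complex.

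The tissue-restricted isoforms stood near the bottom. Cox6a2 and Cox7a1, known as the heart and muscle forms of their subunits, stood at 2.524 and 4.084 CPM per kilobase, against 165.3 for Cox6a1 and 25.44 for Cox7a2, the forms found in most tissues. Cox6b2, known as a testis form, stood at 6.53 and Cox6b1 at 32.92 CPM per kilobase. Cox8a, the form of subunit 8 found in most tissues, stood at 86.85 CPM per kilobase, while its muscle partner Cox8b was among the genes under the level minimum. Cox4i2, the oxygen-responsive partner of Cox4i1, was also under it. In complex IV, then, 1 isoform of each of these pairs had most of the pair's reads.

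Promoters of the members were searched for letters of the factors best known for this pathway, since nuclear respiratory factor 1 (NRF-1) and GABP are the textbook activators of respiratory subunit genes. RefSeq windows (GRCm38.p6) of 300 bases, 250 before and 50 after an annotated start, were matched to 66 members in 71 windows. The NRF-1 letters (GCGCA, any base, then GCGC, on either strand) stood in 25.4% of the members' windows, in 8.93% of 14304 windows of the genes tested and in 4.6% of all 32851 windows. The shares by complex were 23.5% for complex I (8 of 34 windows), 66.7% for complex II (2 of 3) and 20.0% for complex III (1 of 5). They were 8.33% for complex IV (1 of 12) and 35.3% for complex V (6 of 17), few windows for a comparison between complexes. The GABP letters CCGGAAG stood in 23.9% of members' windows, 15.5% of those of genes tested and 8.86% of all. For ERR, the estrogen-related receptors, AAGGTCA stood in 11.3%, 3.29% and 4.72% of these windows, and for YY1 AAGATGG stood in 14.1%, 6.64% and 6.34%. Sp1 letters GGGCGG were in 39.4% of members' windows against 60.5% for genes tested and 35.7% for all, and NF-Y letters CCAAT in 42.3%, 37.2% and 37.4%. Matches of different motifs overlapped in 1 member window (Ndufs3, GABP with Sp1). Both strands were searched for each, and a match describes the letters of the window without showing that a factor binds there.

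The 250 bases before the start are printed for 5 members, 5′ to 3′, in lower case with NRF-1 and GABP letters in capitals. Ndufa11, Sdhd, Cox6a1 and Atp5k are shown because they have NRF-1 letters before the start and lie lower in all 4 old than in all 4 young libraries, as described below for each complex. Sdha met the same description and is not printed. Atp5g2 is shown beside them as the 1 member that lay higher in all 4 old libraries, and it carries the same NRF-1 letters, GCGCATGCGC, as Ndufa11, Cox6a1 and Atp5k. The windows are chr17:56717512-56717761 (plus strand) for Ndufa11, chr9:50603850-50604099 (minus) for Sdhd, chr5:115348959-115349208 (minus) for Cox6a1, chr5:108434400-108434649 (minus) for Atp5k and chr15:102671048-102671297 (minus) for Atp5g2.
Ndufa11: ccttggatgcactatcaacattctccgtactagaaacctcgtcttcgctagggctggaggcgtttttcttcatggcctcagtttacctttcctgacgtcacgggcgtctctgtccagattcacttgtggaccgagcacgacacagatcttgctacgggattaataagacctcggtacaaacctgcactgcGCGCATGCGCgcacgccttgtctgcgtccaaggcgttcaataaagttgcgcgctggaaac
Sdhd: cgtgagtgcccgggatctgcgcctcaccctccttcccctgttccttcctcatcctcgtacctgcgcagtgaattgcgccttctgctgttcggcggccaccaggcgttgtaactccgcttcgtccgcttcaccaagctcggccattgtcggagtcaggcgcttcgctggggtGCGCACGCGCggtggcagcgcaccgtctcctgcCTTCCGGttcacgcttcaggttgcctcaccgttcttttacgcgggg
Cox6a1: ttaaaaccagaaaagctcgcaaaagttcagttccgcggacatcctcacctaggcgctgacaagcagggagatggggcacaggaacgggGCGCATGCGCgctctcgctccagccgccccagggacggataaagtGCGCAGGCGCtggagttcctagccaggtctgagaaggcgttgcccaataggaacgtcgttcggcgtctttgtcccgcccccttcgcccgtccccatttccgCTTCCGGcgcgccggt
Atp5k: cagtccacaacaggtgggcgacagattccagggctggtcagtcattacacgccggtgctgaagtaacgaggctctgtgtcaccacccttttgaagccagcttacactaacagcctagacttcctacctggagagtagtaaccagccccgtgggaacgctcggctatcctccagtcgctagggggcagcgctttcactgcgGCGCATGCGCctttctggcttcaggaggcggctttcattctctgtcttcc
Atp5g2: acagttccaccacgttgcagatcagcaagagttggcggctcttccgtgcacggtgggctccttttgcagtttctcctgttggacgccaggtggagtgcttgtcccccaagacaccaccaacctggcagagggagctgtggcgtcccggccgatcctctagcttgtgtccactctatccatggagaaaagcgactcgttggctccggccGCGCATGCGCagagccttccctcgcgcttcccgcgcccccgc
Cox6a1 holds 2 NRF-1 matches and a GABP match, Sdhd holds 1 of each, and the other 3 windows hold 1 NRF-1 match upstream of the start.

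The first comparison asked whether the members' levels differed between old and young mice. Most members were lower in old cerebellum by a small amount, in every complex, and no single member passed the test. Of the 83 members, 67 (80.7%) had a log2 fold change below 0, old minus young, where 51.4% of the 14191 genes tested did, and the members' median was -0.16 against -0.0056 for all genes tested. Without old 1 the members' median was -0.10, and without young 4 it was -0.11. Values of all 4 old libraries lay below those of all 4 young libraries for 16 members (19.3%, with a background of 3.42% of genes tested), and above them for 1 member (1.2%, background 3.15%). In this test (edgeR quasi-likelihood with age and sex in the model, Benjamini-Hochberg adjustment over all genes tested, threshold 0.05) 0 members were called higher and 0 lower, where 0.0987% and 0.0211% of genes tested were called, 0.12% in all. At an unadjusted p under 0.05, 24 members were lower (28.9%, background 5.76%) and 0 were higher (background 5.25%), with 10 of the 24 in complex I, 2 in complex II, 3 in complex III, 4 in complex IV and 5 in complex V. The DESeq2 Wald test called 1 member, Atp5b (log2 fold change -0.25, adjusted p = 0.0141), among 125 calls over the 14191 genes tested. The limma-voom fit called 0 members and 1 gene in all. In RNA of whole tissue, fewer cells of a type and less RNA per cell cannot be told apart.

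The size of the differences was small for most members. The log2 fold changes ran from -0.45 to 0.53, 47 members lay within 0.2 of 0, and their standard errors had a median of 0.12 and ran from 0.067 to 0.38. The members' counts summed to 4546, 4952, 4993 and 4796 CPM in old 1 to old 4, and to 5594, 5346, 5157 and 5627 CPM in young 1 to young 4. These sums did not overlap, with old 1 the lowest and young 3 the lowest of the young libraries. Abundant genes such as Atp5b weigh most in a sum. A score that weighs members alike, their median deviation of log2 CPM from each gene's mean over the 8 libraries, did overlap. Young 3 scored -0.05, under old 2 (0.03) and old 3 (-0.02) but over old 4 (-0.08) and old 1 (-0.20). The other young libraries scored above every old one. The standard errors are as large as many of the differences, and the statements below for single genes are descriptions of 4 libraries against 4 unless a test is named. Means are given with the SD over the 4 libraries of a group.

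**Figure D2:**
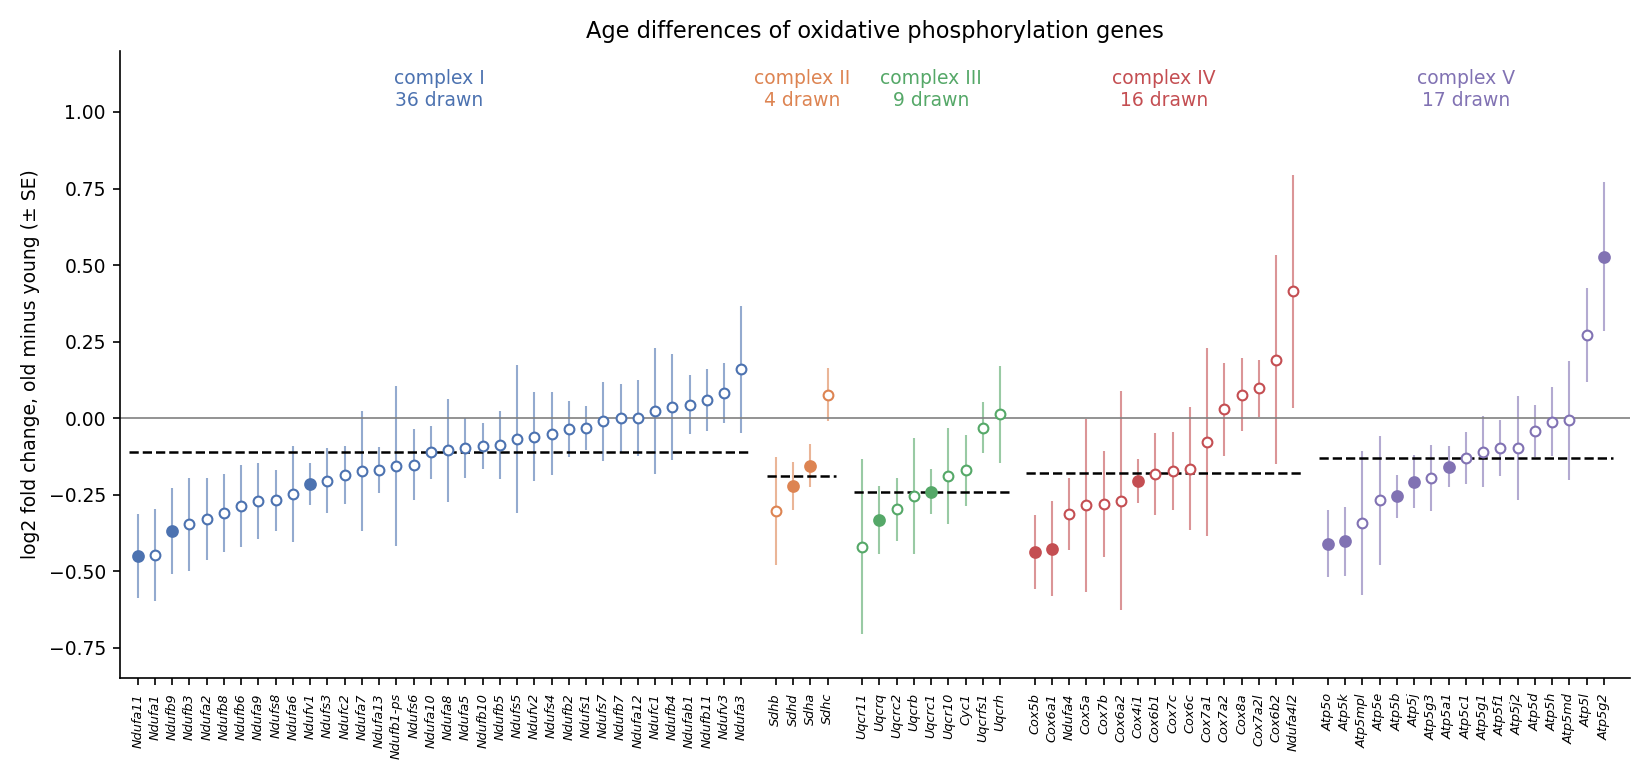
Log2 fold change, old minus young, with its standard error (y) for 82 of the 83 members, in rising order within complexes I to V (x). Filled points are members whose old and young values do not overlap, 15 below and 1 above 0 of those drawn, and dashed lines are medians over all members of a complex, from -0.11 in complex I to -0.24 in complex III.

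Complex I had 30 of 37 members below 0, with a median log2 fold change of -0.11, which was -0.07 without young 1 and -0.19 without young 3. The 7 core subunits tested, which carry the flavin and the iron-sulfur clusters of the matrix arm, were all below 0 with a median of -0.20, while 23 of 30 accessory subunits were, with a median of -0.11. Ndufv1 (GRCm38 chr19:4007384-4012806, minus strand), the subunit that binds NADH and flavin, was at 104.1, 113.6, 114.2 and 116.5 CPM in old 1 to old 4 and at 129.0, 126.4, 134.1 and 131.2 CPM in young 1 to young 4. No old library reached the young values, and old 1 was the lowest. Its log2 fold change was -0.22 (SE 0.068, adjusted p = 0.261). The core subunits were not uniform: Ndufs8, which holds iron-sulfur clusters, was at -0.27 and Ndufs3 at -0.20, but Ndufs1, Ndufs7 and Ndufv2 were at -0.03, -0.01 and -0.06, each within its standard error of 0. Ndufs1 stood at 89.3 ± 4.33 CPM in old and 91.2 ± 4.00 CPM in young libraries, so that a subunit of the same arm showed no such gap.

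Among the accessory subunits, Ndufa11 (chr17:56717767-56722141, plus strand), a membrane subunit whose promoter is printed above, was at 13.8, 15.0, 16.8 and 12.5 CPM in old and 22.0, 18.8, 17.0 and 21.3 CPM in young libraries. Old 3 and young 3 nearly met, and the other values were well apart. The log2 fold change of -0.45 (SE 0.136) was the largest below 0 among members, with an adjusted p of 0.245. Ndufb9 (chr15:58933756-58939488, plus strand), a subunit of the membrane arm, was at 11.6, 14.7, 15.1 and 13.9 CPM in old and 20.3, 17.4, 15.3 and 18.2 CPM in young libraries, again with old 3 and young 3 nearly equal, at -0.37 (SE 0.140, adjusted p = 0.36). Ndufa1, an X-linked accessory subunit, averaged 19.0 ± 3.02 CPM in old and 25.9 ± 5.61 CPM in young libraries (-0.45, SE 0.15, adjusted p = 0.288). Its groups overlapped, because old 1 at 23.1 CPM exceeded young 3 at 19.1 CPM. The most abundant accessory gene, Ndufb10, showed little difference, 81.9 ± 3.51 against 87.2 ± 4.91 CPM (-0.09, SE 0.075).

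Complex II, whose 4 genes are all nuclear, had 3 members below 0 and a median of -0.19. Sdha (chr13:74322254-74350280, minus strand) was at 204.4, 225.7, 220.6 and 224.9 CPM in old and 237.6, 250.9, 251.9 and 234.4 CPM in young libraries. Its groups did not overlap and lay close together, with means of 218.9 ± 9.91 and 243.7 ± 8.98 CPM (-0.16, SE 0.070, adjusted p = 0.444). Sdhd (chr9:50596357-50603812, minus strand), a membrane anchor of the coenzyme Q site, was at 62.3, 76.3, 70.4 and 71.0 CPM in old and 80.2, 83.6, 80.8 and 81.8 CPM in young libraries. The young libraries were close to each other and old 1 was the lowest. Its log2 fold change was -0.22 (SE 0.079, adjusted p = 0.323). Sdhb, the iron-sulfur subunit, was at 21.2, 20.4, 26.4 and 20.5 CPM in old and 32.3, 23.2, 19.4 and 33.5 CPM in young libraries, with groups that overlapped (-0.30, SE 0.175), and without young 4 its log2 fold change was -0.11. Sdhc, the other anchor, was the 1 gene of complex II above 0, at 61.9 ± 5.06 CPM in old and 58.6 ± 2.92 CPM in young libraries (0.08, SE 0.086, and 0.02 without old 1). The anchors Sdhc and Sdhd differed in sign, without a test of that difference.

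Complex III had 8 of 9 members below 0 and the lowest median of the 5 complexes, -0.24. That median rests on few libraries: it was -0.09 without old 1 and -0.11 without young 1. Uqcrc1 (chr9:108936633-108949623, plus strand), a large core protein on the matrix side, was at 75.6, 76.3, 83.7 and 75.9 CPM in old and 92.1, 93.3, 87.8 and 94.4 CPM in young libraries, without overlap (-0.24, SE 0.073, adjusted p = 0.247). Uqcrq (chr11:53427922-53430831, minus strand), a small subunit next to cytochrome b, was at 44.9, 53.1, 61.6 and 55.6 CPM in old and 78.9, 66.8, 62.4 and 63.6 CPM in young libraries. Old 3 and young 3 nearly met (-0.33, SE 0.11, adjusted p = 0.282). Uqcrc2, the partner of Uqcrc1, averaged 45.4 ± 5.77 and 55.9 ± 3.18 CPM and overlapped, since old 2 at 53.3 CPM exceeded young 3 at 52.0 CPM (-0.30, SE 0.103, adjusted p = 0.303).

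Cyc1, which hands electrons to cytochrome c, was at 107.3, 140.9, 158.5 and 144.4 CPM in old and 173.2, 153.2, 143.2 and 151.2 CPM in young libraries, with overlap (-0.17, SE 0.115), and its log2 fold change was -0.05 without old 1 and -0.11 without young 1. Uqcrfs1, the Rieske iron-sulfur protein, was at 108.7 ± 3.19 and 111.3 ± 11.8 CPM (-0.03, SE 0.084), and Uqcrh, the hinge protein that docks cytochrome c, was at 0.01 (SE 0.159). Old 1 was far below the other old libraries for Uqcrh, at 28.2 CPM against 41.0, 42.9 and 51.2 CPM, and for Uqcr11, at 4.33 CPM against 7.63, 9.12 and 7.89 CPM. Uqcr11 had the lowest log2 fold change of complex III, -0.42, with a standard error of 0.286 from a total of 440 counts. It was -0.22 without old 1 and -0.19 without young 4, where Uqcrc2 was at -0.31 and -0.26.

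Complex IV had 11 of 16 members below 0, the smallest share of the 5 complexes as counted here, and a median of -0.18. That count includes Ndufa4l2 and Cox7a2l, which are not canonical subunits and both lay above 0. The share of complex IV was the smallest only with them counted. Without young 4 the median was -0.08. Cox4i1 (chr8:120668222-120674207, plus strand), which takes part in the earliest step of assembly around the mitochondrially encoded core, was at 134.4, 131.0, 131.6 and 134.9 CPM in old and 145.6, 158.4, 146.2 and 162.9 CPM in young libraries. Old values lay within a few CPM of each other and under all young values (-0.21, SE 0.071, adjusted p = 0.303). Cox5b (chr1:36691449-36693681, plus strand), a zinc-binding subunit on the matrix side, was at 22.0, 28.2, 28.0 and 26.5 CPM in old and 39.2, 35.8, 29.8 and 36.9 CPM in young libraries, without overlap (-0.44, SE 0.121, adjusted p = 0.213).

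Cox6a1 (chr5:115345642-115348981, minus strand), whose promoter is printed above, was at 50.9, 94.0, 92.9 and 85.1 CPM in old and 109.0, 104.1, 108.4 and 110.7 CPM in young libraries. The young libraries were tight, and old 1 lay far below the other old libraries. Its log2 fold change was -0.43 (SE 0.155, adjusted p = 0.35), and without old 1 it was -0.26. Ndufa4, a late-joining subunit, averaged 26.1 ± 1.69 CPM in old and 32.4 ± 4.32 CPM in young libraries, and its groups overlapped by a narrow margin between old 2 at 27.5 and young 3 at 27.4 CPM (-0.31, SE 0.118, adjusted p = 0.35). Members above 0 were Cox7a2, Cox8a, Cox7a2l, Cox6b2 and Ndufa4l2, with log2 fold changes of 0.03, 0.08, 0.10, 0.19 and 0.42, each with overlapping groups. Cox5a, a separate subunit and not an isoform of Cox5b, had 284 counts in all, and its exons overlap antisense exons of Gm26631 (-0.29, SE 0.284).

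Complex V had 15 of 17 members below 0 and a median of -0.13, which was -0.09 without young 4. All 5 subunits of the F1 head and central stalk were below 0, with a median of -0.16, as were the 4 of the peripheral stalk, with a median of -0.15. Atp5b (chr10:128083273-128090391, plus strand), where ATP is made, was at 771.9, 725.3, 794.7 and 735.2 CPM in old and 947.9, 876.8, 871.1 and 914.6 CPM in young libraries. It was the most abundant member and its groups were clearly apart, at 756.8 ± 32.2 and 902.6 ± 35.9 CPM (-0.26, SE 0.071, adjusted p = 0.213). Atp5a1 was at 631.2, 609.9, 640.9 and 624.9 CPM in old and 693.2, 693.8, 712.9 and 697.6 CPM in young libraries. Both groups were tight and did not overlap (-0.16, SE 0.067, adjusted p = 0.416).

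Atp5o (chr16:91925214-91931687, minus strand), the peripheral stalk subunit that confers sensitivity to oligomycin, was at 27.9, 34.4, 32.6 and 30.8 CPM in old and 43.4, 40.5, 36.3 and 46.4 CPM in young libraries, without overlap (-0.41, SE 0.108, adjusted p = 0.199). Atp5j (chr16:84827866-84835625, minus strand), also of the peripheral stalk, was at 49.6, 57.9, 59.0 and 59.5 CPM in old and 61.0, 61.0, 64.9 and 73.9 CPM in young libraries (-0.21, SE 0.086, adjusted p = 0.407). Atp5k (chr5:108433244-108434448, minus strand), a membrane subunit that takes part in joining ATP synthase dimers, was at 37.7, 50.1, 52.5 and 53.5 CPM in old and 67.2, 66.5, 57.8 and 64.5 CPM in young libraries, without overlap (-0.40, SE 0.114, adjusted p = 0.218). For Atp5j and Atp5k old 1 was the lowest of all libraries. Exons of Atp5j overlap antisense exons of Gabpa, and those of Atp5a1 overlap antisense exons of Haus1. Those of Atp5o overlap antisense exons of D430001F17Rik and same-strand exons of another gene model. Of the 82 members with an annotation, 25 have exons that overlap those of another gene, 4 on the same strand and 23 antisense. Whether strand was used in counting is not given in the sources used here.

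Only Atp5g2 and Atp5l of the 17 complex V members had log2 fold changes above 0, and Atp5l was singled out after its values were seen. Atp5g2 (chr15:102662864-102672352, minus strand) was at 3.85, 6.48, 4.25 and 4.10 CPM in old and 3.41, 3.29, 2.90 and 3.37 CPM in young libraries. All old values lay above all young ones, with old 2 the highest (0.53, SE 0.243, adjusted p = 0.458), and without old 2 the log2 fold change was 0.31. Atp5l, subunit g of the membrane part, was at 30.8, 40.4, 30.0 and 30.6 CPM in old and 27.6, 20.4, 24.03 and 37.0 CPM in young libraries, with overlap (0.27, SE 0.155). These were also the members that share most sequence with other genes, as described next.

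**Figure D3:**
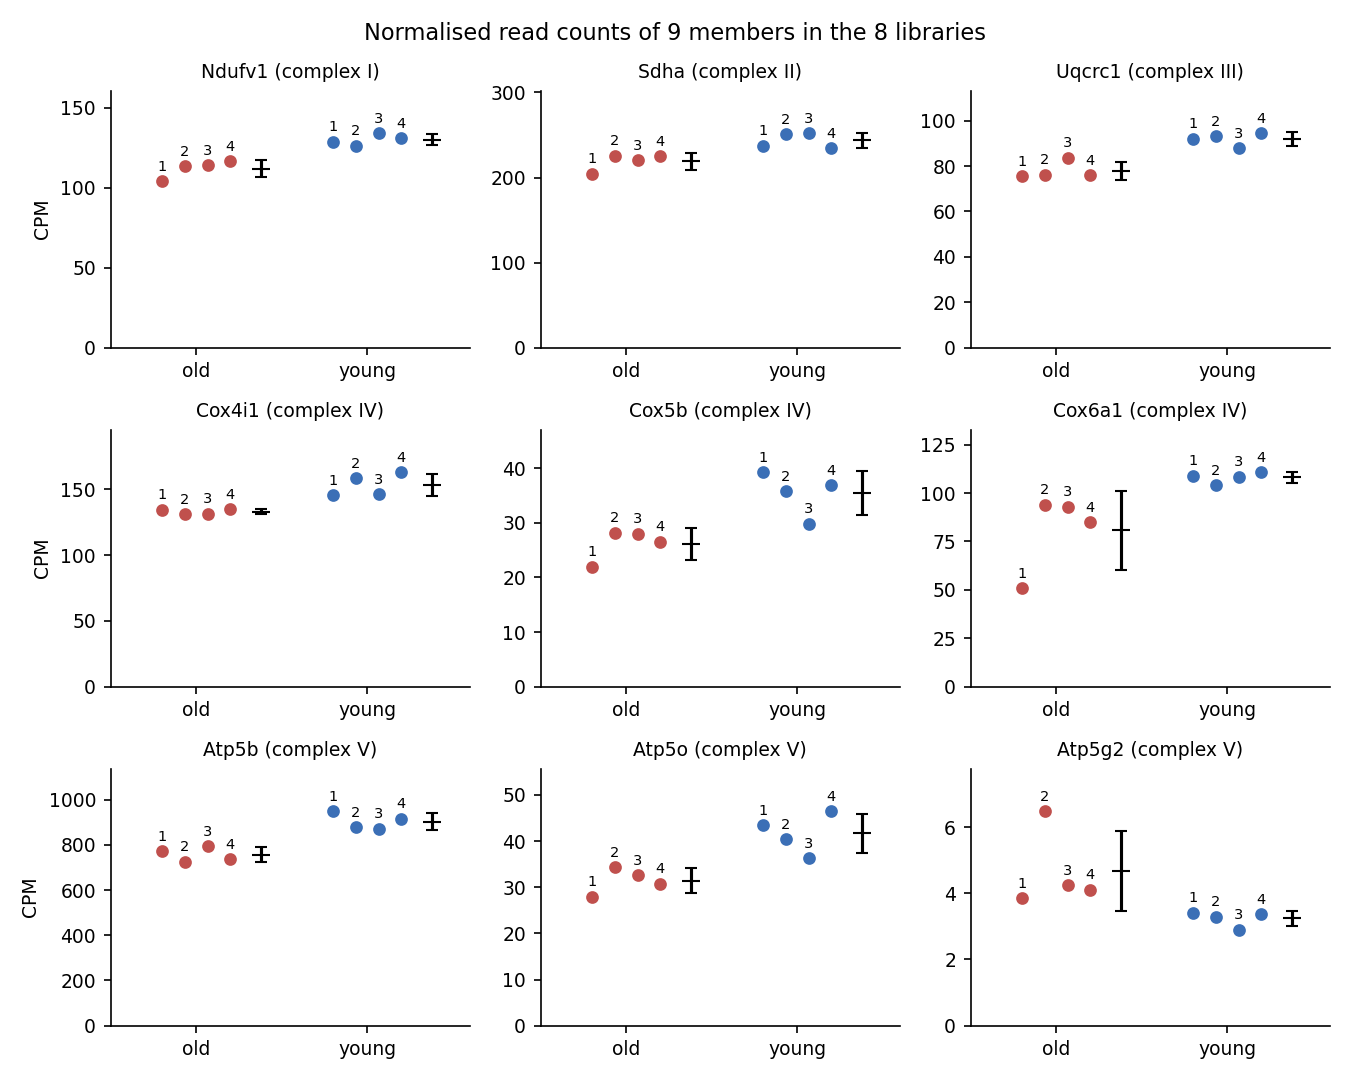
CPM (y, from 0) of 9 members in the 4 old and 4 young libraries (x), with the library number above each point and the group mean ± SD in black beside it. The 9 were picked from the members whose old and young values do not overlap. Of all 83 members these were 16 lower and 1 higher in old libraries (background 3.42% and 3.15% of genes tested). Atp5g2 is higher and the other 8 drawn are lower in old libraries, and old 1 stands apart for Cox6a1 at 50.9 CPM.

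Respiratory subunit genes are known for their many processed pseudogenes, so each member's transcripts were cut into words of 50 bases and searched for in transcripts of other genes. Of 82 members, 36 shared a word with another gene, and 46 shared none. Atp5g2 shared 87.4% of its words, most with Gm10175, and Atp5l shared 68.5% with 13 other genes, 12 of them pseudogenes. Next came Uqcrb with 43.2%, Atp5h with 38.8%, Ndufb4 with 37.0% and Ndufs3 with 35.8%. Among the 16 members lower without overlap, Cox5b shared 23.0%, Atp5o 19.1% and Cox6a1 12.3%. Of the 23 members with at least 5% shared, 14 were below 0 (60.9%, median -0.10), and of the 59 with less than 5%, 52 were (88.1%, median -0.18). How reads mapping to several places were counted is not given in the sources used here, and the part of shared reads in these values was not tested.

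**Figure D4:**
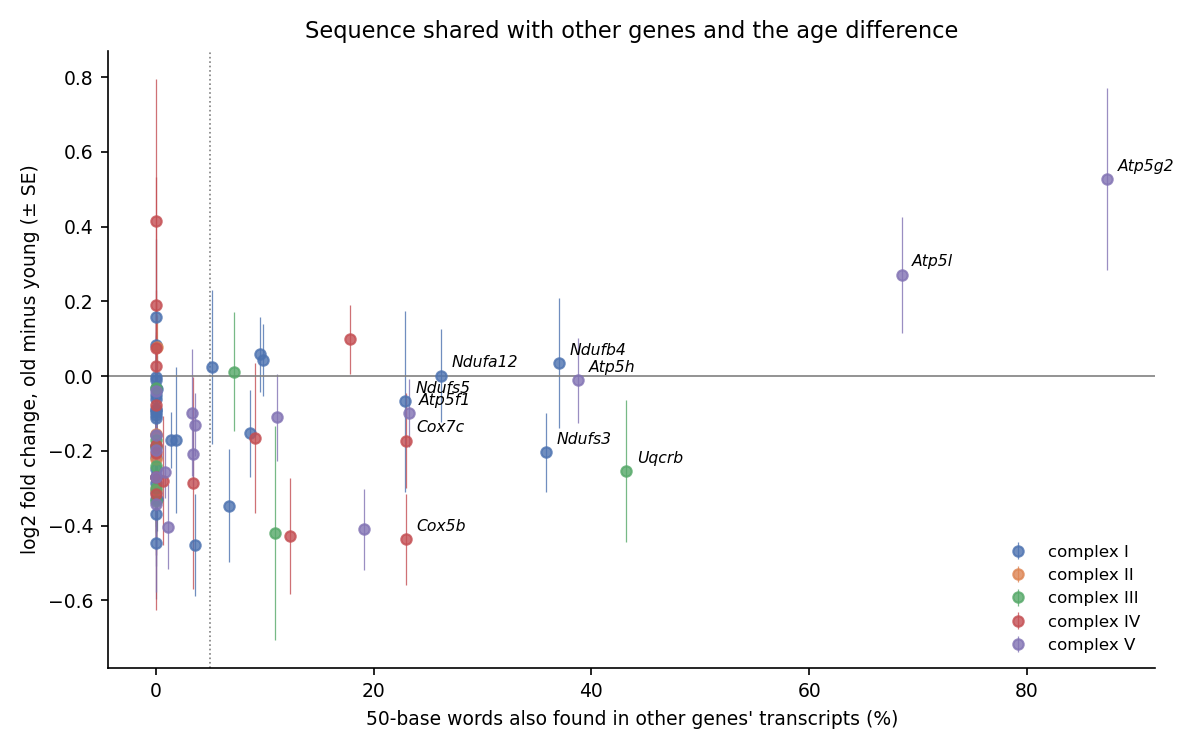
Share of each member's 50-base words that also occur in transcripts of other genes (x, percent) against its log2 fold change, old minus young, with standard error (y), coloured by complex. The dotted line marks 5%, and the 2 members at the right, Atp5l at 68.5% and Atp5g2 at 87.4%, lie above 0.

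Isoform use within a pair was compared as the log2 ratio of the 2 genes in each library, with an exact two-sided permutation test over the 70 regroupings of the 8 libraries, whose smallest possible p is 0.0286. For Atp5g2 over Atp5g3, genes for the same mature c-ring protein, the ratio was -4.00, -3.48, -3.95 and -4.01 in old and -4.42, -4.60, -4.35 and -4.66 in young libraries. The old ratios were all higher, by 0.64 (exact permutation p = 0.0286, the smallest the test can give, and 0.172 adjusted over the 6 pairs). Atp5g2 is also the gene with 87.4% shared words, and it had 206 counts over the 8 libraries.

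Ndufa4l2 over Ndufa4 was 0.67 higher in old libraries, with overlap from young 3 (exact permutation adjusted p = 0.342), on 75 counts of Ndufa4l2 in all. Old ratios were -3.54, -3.58, -3.81 and -4.13, and young ones -4.69, -4.80, -3.56 and -4.67. For the muscle or testis forms the ratios overlapped between the ages: Cox6a2 over Cox6a1 differed by 0.22 (p = 0.371), Cox7a1 over Cox7a2 by -0.15 (p = 0.6) and Cox6b2 over Cox6b1 by 0.23 (p = 0.514), all by exact permutation and each with an adjusted p of 0.629. Atp5g1 over Atp5g3 differed by 0.08 (exact permutation p = 0.629). These pairs rest on few counts for the minor form, such as 88 for Cox6a2 and 113 for Cox7a1.

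The libraries of an age were not alike. A score was taken for each complex in each library, the median deviation of its members' log2 CPM from their means over the 8 libraries. Old 1 had the lowest score in all 5 complexes, from -0.18 in complex II to -0.44 in complex III, and was the lowest library for 38 of the 83 members (45.8%, against 16.0% of all genes tested). Among young libraries, young 3 was the lowest in complexes I, III, IV and V, at -0.07, -0.02, -0.07 and -0.05, and overlapped the old libraries there. Young 4 was the highest library for 33 members and young 1 for 27. Only the complex II scores were apart, at -0.18, -0.04, 0.00 and -0.08 in old and 0.06, 0.03, 0.08 and 0.07 in young libraries.

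Other genes moved with the same libraries. The 1414 genes with the shortest exons include 60 members, and the other 1354 of them had a score of -0.11 in old 1 and 0.03, 0.04 and 0.00 in the other old libraries, and 0.09, -0.00, -0.06 and 0.08 in young libraries. Old 1 and young 3 were thus low, and young 1 and young 4 high, among short genes in general as among members. The members' median exon length is 952.5 bases, against 3447 for genes tested. The median log2 fold change of those 1354 genes was -0.03. With each library corrected for exon length, 63 of 83 members were below 0 with a median of -0.13.

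Granule neuron markers moved with part of the pattern: their score was -0.15, 0.02, 0.11 and -0.35 in old and 0.16, -0.23, -0.05 and 0.39 in young libraries, high in young 1 and young 4 and lowest in old 4. Of the 14 markers 13 had log2 fold changes below 0 (median -0.15), and with this score added to the model 57 members were below 0 with a median of -0.11, and the complex III median was -0.16. Marker lists of other cells had medians of -0.19 for Purkinje cells (14 of 15 below 0), -0.12 for astrocytes and Bergmann glia (12 of 14), -0.16 for oligodendrocytes (9 of 12), 0.77 for microglia (0 of 12), 0.17 for endothelium (3 of 10), 1.25 for choroid plexus (0 of 11), 0.52 for erythroid cells (0 of 6), 1.95 for liver (0 of 5) and -0.02 for muscle and heart (2 of 3 tested). When the choroid plexus score was added to the model, 64 members were below 0 with a median of -0.16. Without old 1, 60 members were below 0 (72.3%, against 50.5% of genes tested), and 16 were lower at an unadjusted p under 0.05, as were 4.36% of genes tested. Without young 1, 13 were lower at that limit, as were 3.1% of genes tested. The part of cell mix, transcript length or any 1 library in the members' difference was not tested beyond these values.

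**Figure D5:**
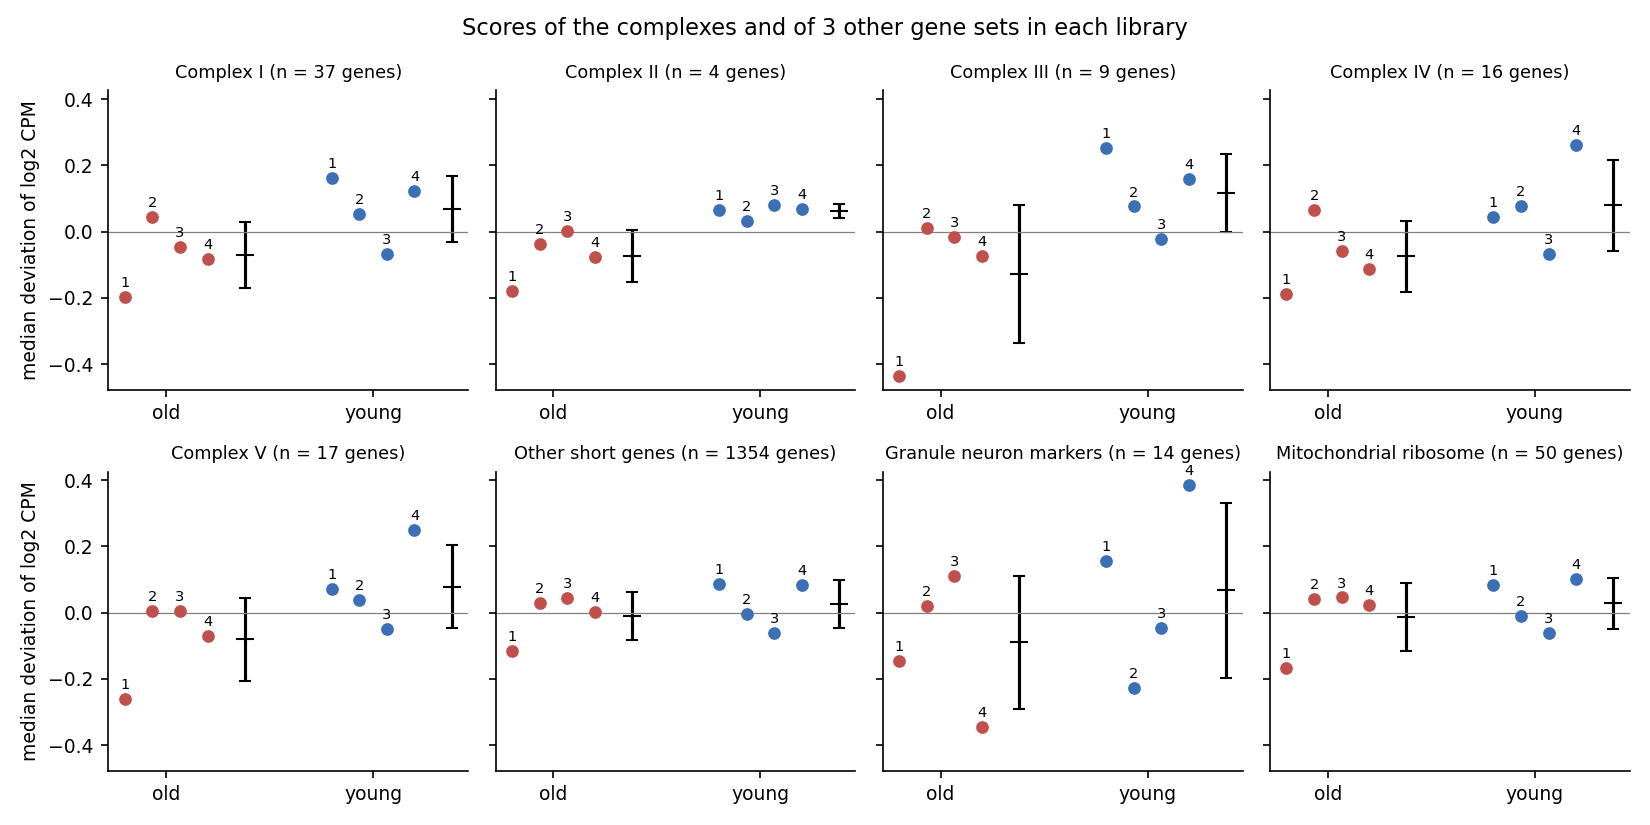
Score of each complex and of 3 other gene sets (median deviation of log2 CPM from each gene's mean over the 8 libraries, y) in the 4 old and 4 young libraries (x), with library numbers and the group mean ± SD in black. Old 1 is the lowest library in each of the 5 complexes and also in the 1354 other short genes and the mitochondrial ribosome.

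Genes that work beside the complexes were described from lists of known members. The 16 glycolysis genes tested had 15 below 0 and a median of -0.15, and the 17 genes of the tricarboxylic acid cycle and pyruvate dehydrogenase had 15 below 0 and a median of -0.13, with 8 of the 17 lower without overlap, where 3.42% of genes tested were. Cs, citrate synthase, was at 153.8 ± 3.54 CPM in old and 179.9 ± 9.02 CPM in young libraries (-0.23, SE 0.070, adjusted p = 0.255). Eno2, the neuronal enolase, was at 342.8 ± 23.0 and 431.5 ± 34.8 CPM (-0.33, SE 0.078, adjusted p = 0.137), and the DESeq2 Wald test called it (adjusted p = 0.00813). Like the complexes, both lists of fuel-oxidising enzymes lay mostly below 0 by small amounts. The mitochondrial ribosomal proteins, whose transcripts are also short, had 29 of 50 below 0 and a median of -0.03.

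Assembly factors, which build the complexes without staying in them, had 28 of 48 below 0 and a median of -0.0035. By complex these were 12 of 15 for complex I (median -0.06), 0 of 4 for complex II (0.03), 4 of 6 for complex III (-0.08) and 11 of 19 for complex IV (-0.001), with 1 of 4 for the ATP synthase factors and its inhibitor (0.03). Uqcc2, an assembly factor of complex III, was at 8.18, 11.7, 11.2 and 11.2 CPM in old and 19.9, 15.7, 12.4 and 16.4 CPM in young libraries. Its groups did not overlap (-0.61, SE 0.175, adjusted p = 0.229), and it lay further below 0 than any member. Surf1, an assembly factor of complex IV whose loss causes Leigh syndrome, was at 35.3 ± 2.36 and 43.5 ± 3.76 CPM, also without overlap (-0.30, SE 0.097, adjusted p = 0.268). The smallest-p genes of the remaining assembly lists were Ecsit for complex I (-0.25, SE 0.122), Sdhaf1 for complex II (0.22, SE 0.320) and Tmem70 for ATP synthase (-0.15, SE 0.107), all with overlapping groups. Ecsit was at -0.15 without young 4, Sdhaf1 at 0.03 without young 3 and Tmem70 at -0.05 without old 1.

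Regulators of the subunit genes lay on both sides of 0. Of 12 regulators of respiratory chain transcription, 4 were below 0 (median 0.07). Ppargc1a, the coactivator PGC-1 alpha, was at 120.1 ± 8.08 CPM in old and 112.3 ± 13.1 CPM in young libraries (0.10, SE 0.093). Nrf1, the factor whose letters stand in the printed promoters, was at 33.6 ± 1.89 and 36.7 ± 2.25 CPM (-0.13, SE 0.094), and Gabpa at 62.3 ± 5.31 and 55.8 ± 5.65 CPM (0.16, SE 0.094). Esrra, the estrogen-related receptor alpha, was at 82.0 ± 12.3 and 95.4 ± 9.60 CPM (-0.22, SE 0.116), and Pprc1, a relative of PGC-1 alpha, at 32.7 ± 3.01 and 27.6 ± 2.63 CPM without overlap (0.25, SE 0.112, adjusted p = 0.448). Several of these values moved with 1 library: Ppargc1a was at 0.03 without old 1 and also without young 1, Esrra at -0.12 and -0.14 in the same order, Gabpa at 0.10 without old 3 and Pprc1 at 0.16 without old 4. Adjusted p-values of these regulators were 0.448 or more. Members with NRF-1 letters in a window had a median of -0.16 (15 of 17 below 0) and those without had -0.11 (37 of 49), and for GABP letters the values were -0.21 (14 of 17) and -0.11 (38 of 49). For NF-Y letters the medians were -0.15 with and -0.11 without. The other motifs went the other way, at -0.11 and -0.15 for Sp1, -0.125 and -0.142 for YY1 and -0.132 and -0.141 for ERR. These differences were not tested.

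For mitochondrial DNA transcription and replication, 7 of 11 genes were below 0 (median -0.03), with Tfam, which packages mitochondrial DNA, at 67.1 ± 5.60 and 64.9 ± 2.26 CPM (0.05, SE 0.085) and Tfb2m, the transcription initiation factor, at -0.19 (SE 0.115). Electron carriers and coenzyme Q synthesis had 10 of 17 below 0 (median -0.01). Cycs, cytochrome c, which carries electrons from complex III to complex IV, was at 22.5, 30.5, 29.3 and 28.1 CPM in old and 20.0, 22.6, 24.7 and 25.3 CPM in young libraries. It lay above 0, with overlap through old 1 (0.25, SE 0.113, adjusted p = 0.444). Coq10b, a coenzyme Q binding protein, was higher without overlap at 20.9 ± 1.04 and 16.7 ± 1.98 CPM (0.32, SE 0.124, adjusted p = 0.362). Import and carrier genes had 11 of 17 below 0 (median -0.09), with Slc25a5, which exchanges ADP for the ATP that complex V makes, at 138.9 ± 12.2 and 164.8 ± 5.29 CPM without overlap (-0.25, SE 0.077, adjusted p = 0.255).

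The labels allow 2 further comparisons, sex and its interaction with age. For sex, with age in the model, 0 members were called where 0.0423% of genes tested were, 0 members had an unadjusted p under 0.05 where 4.76% of genes did, and DESeq2 and limma-voom also called 0. Log2 fold changes, female minus male, ran from -0.28 for Ndufa1, which is X-linked, to 0.36 for Atp5mpl, and the smallest p was 0.0509, for Atp5f1 (0.20, SE 0.092, adjusted p = 0.93). The interaction, fitted on cells of 2 animals, called 0 members and 0% of genes tested, and 3 members had an unadjusted p under 0.05 (background 2.3%). These were Ndufb7 at -0.48, Ndufa2 at 0.53 and Ndufb6 at 0.53, on the scale of the age difference in females minus that in males, each with an adjusted p of 1. DESeq2 and limma-voom called 0 for the interaction too. With 2 animals a cell, intervals are wide, with standard errors of 0.191, 0.23 and 0.232 for these 3 genes.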

How the data were processed

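RNA of cerebellum from 4 old and 4 young mice was counted per gene. The authors deposited raw counts, 1 table per library, which the headers and whole-number values show to be unscaled. For their making, the submitters' processing notes list STAR 2.7.5b, Trimmomatic 0.39, featureCounts, SAMtools 1.10, bcl2fastq 2.20.0, FastQC 0.11.9, deepTools 3.5.0 and Picard 2.20.8, and the builds GRCm38 and mm10. Counting annotation, strand setting and handling of multi-mapping reads: not given in the sources used here. Tables were joined by row, since spreadsheet dates replaced 24 gene names in 7 of 8 tables. Counts of each pair of libraries differed by more than sampling noise.

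The filter filterByExpr, with a minimum count of 10, kept 14191 genes and all 83 members. CPM uses TMM-adjusted totals, and log2 CPM adds 2 prior counts. Age was tested with edgeR 4.0.16 in R 4.3.3 (robust quasi-likelihood, age and sex in the model, all 8 libraries), with Benjamini-Hochberg adjustment over the genes tested and a threshold of 0.05. A standard error is the size of the log2 fold change divided by the root of F. Isoform ratios were compared by exact permutation. Alternatives were DESeq2 1.42.0 (size factors, Wald test), limma 3.58.1 (voom), other filters and dispersions, no sex term, the replicate block, exon length and GC corrections, marker scores in the model and left-out libraries. The steps were tested on simulated data.

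The members and lists were chosen with earlier results of these data known. Genes named are the 4 with the smallest p in complexes I, III, IV and V, all of complex II, every member with non-overlapping groups, isoform pairs, the highest and lowest level of each complex, Ppargc1a, Nrf1, Gabpa, Esrra, Tfam and Cycs, and the smallest-p gene of each pathway list. Other members named with values were chosen after those were seen. The values of 1 member that this rule names are not reported here.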

Additional observations from a re-analysis of the deposited data

Results flagged for a closer look

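For 64 items (the named genes, the isoform ratios and the scores of the complexes and of all members), the highest or lowest library of each group was compared with the gap to its nearest neighbour, 128 groups in all, and 15 stood apart by a criterion that chance meets in about 5% of groups.

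In complex I, Ndufb1-ps was at 4.605 CPM in old 2, against 2.987 to 3.156 CPM in the other old libraries. In complex II, Sdhb was at 26.42 CPM in old 3, against 20.44 to 21.18 CPM. In complex III, Uqcrc1 was at 83.65 CPM in old 3, against 75.57 to 76.28 CPM, and still lay under every young library. In complex IV, Cox6a2 was at 0.9626 CPM in old 1, against 1.727 to 1.736 CPM. Cox7a1 was at 3.302 CPM in old 3, against 1.727 to 1.765 CPM, and Cox7a2 was at 20.15 CPM in old 2, against 15.47 to 16.2 CPM. In complex V, Atp5j was at 49.58 CPM in old 1, against 57.85 to 59.49 CPM, and Atp5g2 was at 6.476 CPM in old 2, against 3.851 to 4.245 CPM. Atp5g1 was the 1 member with a young library apart, at 71.03 CPM in young 1 against 53.6 to 54.09 CPM.

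Among genes beside the complexes, Uqcc2 was at 8.182 CPM and Slc25a5 at 120.8 CPM in old 1, against 11.16 to 11.66 CPM and 142.6 to 146.6 CPM. Pprc1 was at 37.24 CPM in old 4, against 31.13 to 31.29 CPM. Tfam was at 61.53 CPM in young 3, against 65.7 to 66.5 CPM.

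The Ndufa4l2 over Ndufa4 log2 ratio was -3.559 in young 3, against -4.798 to -4.672 in the other young libraries. The Atp5g2 over Atp5g3 log2 ratio was -3.483 in old 2, against -4.005 to -3.954. Old 1 was the low library in 4 of these cases and old 2 the high one in 4.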

How the results depend on the processing

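Members called lower with age numbered 0 in the main analysis, 1 in the DESeq2 Wald test (Atp5b) and 1 without old 2, old 3 and young 4 together (Cox6a1, log2 fold change -0.74, adjusted p = 0.0171). Over all genes, these 2 settings called 125 of 14191 and 184 of 14404. The second kept only old 1 and old 4 in the old group, and old 1 was the low library for Cox6a1, at 50.9 CPM. The cause was not tested. Every other alternative gave 0, as did all of those for members called higher, for sex and for the interaction. No complex median changed sign in any of the 21 alternatives for age. With a library left out, the members' median ran from -0.21 to -0.10, and those of complexes I to V from -0.19 to -0.07, -0.21 to -0.15, -0.32 to -0.09, -0.25 to -0.08 and -0.17 to -0.09.

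With the replicate block, 0 members were called, 12 were lower at an unadjusted p under 0.05 (2.57% of genes tested were), and the medians of complexes I to V were -0.12, -0.19, -0.24, -0.18 and -0.13. The numbers do not pair the animals: deviations of same-numbered libraries correlated at 0.0996, -0.187, -0.0361 and -0.438 over genes, and none correlated best with its own number.

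Of 52 named genes, 25 moved by over 1.5 times with 1 library left out. Signs changed for some low or flat genes, and the cause was not tested. With the granule neuron score Cox7a1 was 0.0555. With the choroid plexus score Cox7a1, Cox7a2 and Cox6b2 were 0.0453, -0.0092 and -0.1921. Without old 2, old 3 and young 4 Tfam was -0.0085. With 1 library left out, log2 fold changes ran from -0.3598 to 0.0513 for Ndufb1-ps, -0.3622 to 0.0606 for Cox7a1, -0.0952 to 0.1395 for Cox7a2, -0.0067 to 0.1994 for Cox8a, -0.2593 to 0.423 for Cox6b2 and -0.1739 to 0.0141 for Atp5g1. Isoform ratio differences ran from -0.3749 to 0.0085 for Cox7a1 over Cox7a2, -0.0067 to 0.3873 for Cox6b2 over Cox6b1 and -0.0259 to 0.1829 for Atp5g1 over Atp5g3. Members such as Ndufa4l2, Cox6a2 and Cox7a1, with 75, 88 and 113 counts in all, rest on few counts, and the part of depth in their spread was not tested.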
